A study of Mus musculus with 6 samples.

Results

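The genes described here concern the first receptor of the B lineage and its regulators. They are the surrogate light chain genes Vpreb1 and Igll1, the related gene Vpreb3, and the receptor partners Cd79a and Cd79b. The others are the early B-cell transcription factors Ebf1 and Pax5 and the recombination genes Rag1 and Dntt. The genes were chosen by name, and all 9 were found among the 23574 genes of the count files. RNA sequencing was done on haematopoietic stem cells of C57BL/6 mice, from 3 wild-type libraries and 3 libraries of littermates labelled HLF KO. Hlf encodes hepatic leukaemia factor, a DNA-binding protein of the PAR bZIP class. Each library came from 3000 freshly sorted cells without lineage markers, positive for Sca-1 and c-Kit, and without CD34 and Flt3. The sources used here give neither the age and sex of the mice, the deleted part of Hlf nor the antibodies of the lineage gate. They do not say whether animals were pooled or each library had a mouse of its own. The p-values therefore measure spread between libraries, which may be technical.

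In a B-cell precursor the immunoglobulin heavy chain is made before any light chain. The proteins of Vpreb1 and Igll1 (lambda 5) together form a surrogate light chain, which pairs with the heavy chain and is displayed with the signalling partners Ig-alpha (Cd79a) and Ig-beta (Cd79b) as the pre-B cell receptor. Ebf1 and Pax5 specify the lineage and commit cells to it, the RAG recombinase cuts the antigen receptor loci, and terminal transferase, the product of Dntt, adds bases at the joins. Haematopoietic stem cells are known for low-level transcription of some lineage genes, while these genes as a programme belong to later lymphoid precursors.

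Library totals ran from 8346335 to 9902102 counts in wild type and were higher in knockout, from 10182464 to 11998296. Hlf, in counts per 1000000 (CPM, on TMM-scaled totals), was 1380 ± 274 for wild type against 34.4 ± 5.30 for knockout (SD, n = 3 each). Of 14 stem cell markers 12 had a count, and their summed level was 2601 to 2935 CPM for wild type against 1175 to 1380 CPM for knockout with Hlf itself among them. Without Hlf the sums overlapped, at 1273 to 1486 CPM and 1137 to 1343 CPM. A sum can hide single genes. Among 11 tested stem cell markers, 4 had lower values in knockout at an unadjusted p under 0.05 (edgeR's quasi-likelihood F test) and 0 higher. These were Hlf, Procr, Mecom and Fgd5. Without wild-type library 3 there were 2 lower and 1 higher. With all libraries, 4.65% of all tested genes had such lower values and 2.63% such higher ones. Ly6a (Sca-1) was at 0 and Kit had 1 count in all, and both genes have several listed transcripts. The median total count was 3 for genes with 2 or more listed transcripts and 79 for those with 1. A count of 0 for such a gene was therefore not read as absence, which applies to Dntt, with 2 listed transcripts. The other 8 genes each have 1.

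B-lineage transcripts were low and patchy in all 6 libraries, and the libraries differed in which of them they held. Every wild-type library had Vpreb1 reads, while the 3 knockout libraries together had 1. Each of the 8 genes with reads had its highest CPM in a wild-type library, but no share over all genes was formed for this. For Cd79b it was 59.1 CPM in wild-type library 3 against 52.5 CPM in knockout library 1. Cd79b was present throughout, with overlapping ranges, and Rag1 was found in 1 wild-type and 3 knockout libraries. In the test across all genes (edgeR's quasi-likelihood F test), 0 of the 5 genes that could be tested passed an adjusted p of 0.05, against 1 of 10204 genes overall (0.0098%), which was Hlf. At an unadjusted p under 0.05 it gave 1 of the 5, Vpreb1, with a lower value in knockout. Of all tested genes 4.65% had such lower values and 2.63% such higher ones. With 1 library left out the filter passed 5 to 7 of the 9, and 1 to 4 of these had such lower values, the most without wild-type library 1 or knockout library 2. In the same fits 2.87% to 6.05% of all tested genes had such lower values. A higher value at this p was found for 1 of the 9, Rag1, without wild-type library 2, and for 1.45% to 5.67% of all. In these fits Cd79a and Ebf1, where tested, passed the filter only through wild-type libraries, as did Vpreb1 in every filtered fit. The same holds for Igll1 without knockout library 2. Rag1 passed only through knockout libraries without wild-type library 2. The counts of such genes are therefore no support for a difference. DESeq2 called 1 of the 5, again Vpreb1, and 1.26% of the 9517 genes it gave an adjusted p. With bulk RNA, fewer cells of a type and less RNA per cell cannot be told apart.

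**Figure D1:**
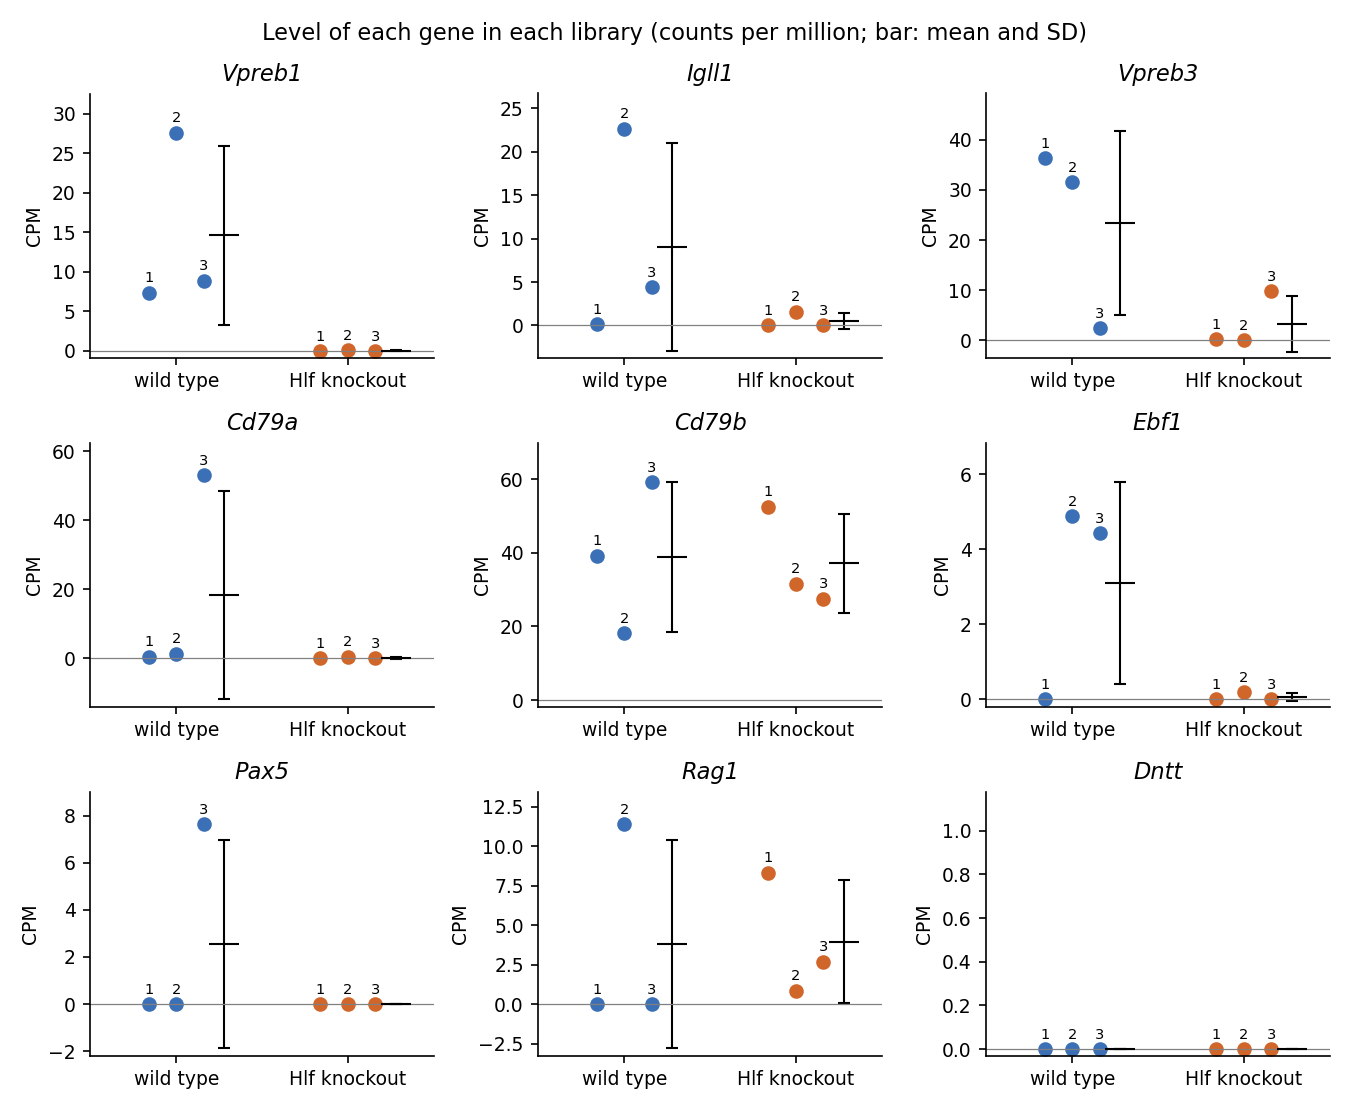
Level in CPM of the 9 genes in each of the 6 libraries (numbered points), with the mean and SD of each genotype as a bar beside them. Vpreb1 lies between 7.38 and 27.6 CPM in wild type and at most at 0.0942 CPM in knockout, Cd79b overlaps fully, and single libraries carry most of Cd79a, Pax5 and Rag1.

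The sequence in front of 4 of these genes is shown. They are the surrogate light chain genes Vpreb1 and Igll1, their relative Vpreb3 and the receptor partner Cd79a. No other readout of these promoters was used here. Each run is the 250 bases before the annotated start, 5′ to 3′ on the gene's strand, from RefSeq on GRCm38.p6. The counts rest on another build, mm9, and carry no coordinates. Capitals mark motif matches. The windows lie at chr16:16869256-16869505 (minus strand) for Vpreb1, chr16:16863986-16864235 (minus) for Igll1, chr10:75948050-75948299 (plus) for Vpreb3 and chr7:24897247-24897496 (plus) for Cd79a.
Vpreb1: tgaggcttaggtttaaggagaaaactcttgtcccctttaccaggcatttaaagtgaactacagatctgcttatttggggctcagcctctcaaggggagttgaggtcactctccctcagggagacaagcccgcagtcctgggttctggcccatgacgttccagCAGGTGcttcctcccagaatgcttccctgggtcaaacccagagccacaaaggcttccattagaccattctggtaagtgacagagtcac
Igll1: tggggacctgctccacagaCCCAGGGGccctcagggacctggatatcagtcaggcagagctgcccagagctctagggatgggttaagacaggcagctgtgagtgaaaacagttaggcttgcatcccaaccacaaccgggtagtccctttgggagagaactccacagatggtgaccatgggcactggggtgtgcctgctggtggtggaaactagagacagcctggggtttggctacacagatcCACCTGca
Vpreb3: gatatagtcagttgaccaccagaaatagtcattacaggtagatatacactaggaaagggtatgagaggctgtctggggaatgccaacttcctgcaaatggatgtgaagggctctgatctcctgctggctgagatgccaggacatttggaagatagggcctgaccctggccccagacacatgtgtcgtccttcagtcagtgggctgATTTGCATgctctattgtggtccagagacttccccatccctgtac
Cd79a: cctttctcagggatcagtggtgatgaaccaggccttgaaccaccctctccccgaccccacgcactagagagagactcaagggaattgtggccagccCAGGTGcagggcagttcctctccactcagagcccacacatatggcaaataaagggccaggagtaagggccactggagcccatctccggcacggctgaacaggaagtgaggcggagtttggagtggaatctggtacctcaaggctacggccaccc

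Motifs were searched on both strands in the 250 bases before each start, in windows that 8 of the 9 genes had (2 for Ebf1), all but Cd79b. The E-box CAGGTG, bound by E2A, was found in front of Vpreb1 at -88 to -83, of Igll1 at -8 to -3 (as CACCTG) and of Cd79a at -154 to -149, with the last base before the start counted as -1. Rag1 also held it, which makes 4 of 8 genes, and 17.2% of all 32851 windows had it. The EBF core CCCNNGGG was found only before Igll1, at -231 to -224, and in 11.8% of all windows. The octamer ATGCAAAT, bound by Oct factors, was found only before Vpreb3, at -45 to -38 on the opposite strand, and in 1.60% of windows. The PAR bZIP core TTANGTAA, the kind of site Hlf binds, was found before 0 of the 8 genes and in 2.06% of windows. None of these matches overlapped another, and a match is a stretch of letters, not a measured site.

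Vpreb1, which encodes the variable-like part of the surrogate light chain, had 58, 265 and 80 counts in wild-type libraries 1, 2 and 3. The knockout libraries had 0, 1 and 0. All wild-type libraries lay above all knockout libraries, a separation in this direction that 1 of the 5 tested genes and 6.85% of all tested genes showed. None of the 5 was separated the other way, as 7.52% of all were. With the knockouts near 0, Vpreb1 could pass the filter on low counts only if all wild-type libraries were high. That 1 of the 5 was separated is therefore no support for a difference. Scaled to library size, the level was 14.6 ± 11.2 CPM for wild type against 0.0314 ± 0.0544 CPM for knockout (SD, n = 3 each). Depth was considered for counting error only, and other losses of reads were not tested. At the share of the lowest wild-type library, the knockout libraries would have held 72.7, 70.8 and 83.4 counts, while a count of 0 allows up to 3 counts, or 0.287 and 0.250 CPM of the totals of knockout libraries 1 and 3 (these limits cover counting error only).

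The log2 fold change of Vpreb1 was -8.40 (SE 1.71), with an unadjusted p of 0.0004 and an edgeR adjusted p of 0.37. From the summed counts per total reads alone, 403 against 1, wild type was 486 times as high, and counting error alone gives an exact 95% interval from 86.8 to 19300. With DESeq2 the log2 fold change was -8.83 (SE 1.65, adjusted p = 0.00011). Without a filter on low counts edgeR gave an adjusted p of 0.092, and with 1 library left out at a time the smallest was 0.185. The two-sided exact permutation p of log2 CPM was 0.1, the smallest that 3 against 3 libraries allow. Vpreb2, a near copy, had 41 counts in wild-type library 2 and 0 in the other 5. Its transcript is identical to that of Vpreb1 at 97.4% of 759 aligned bases, with a longest identical run of 196 bases, so the split of reads between the pair is uncertain. The summed counts of both were 58, 306 and 80 in wild type and 0, 1 and 0 in knockout.

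Igll1 encodes lambda 5, the constant-like part of the surrogate light chain. It was counted 1, 217 and 40 times in wild-type libraries 1, 2 and 3 and 0, 17 and 0 times in the knockouts. Knockout library 2 thus lay above wild-type library 1, and the genotypes overlapped. Its level was 9.04 ± 11.9 CPM for wild type against 0.534 ± 0.924 CPM for knockout (SD, n = 3 each), where the SD exceeds the mean in both. The log2 fold change of -4.06 (SE 2.14) had an edgeR adjusted p of 0.70. It was -2.07 without wild-type library 2 (adjusted p = 0.83). Without knockout library 2 both remaining knockout libraries are at 0, and no fold is given.

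Vpreb3 encodes a related protein that is retained inside the cell. It was counted 285, 303 and 22 times in the wild-type libraries and 2, 0 and 113 times in the knockouts. Wild-type libraries 1 and 2 were high, and knockout library 3 lay above wild-type library 3. Its level was 23.4 ± 18.3 CPM for wild type against 3.32 ± 5.60 CPM for knockout (SD, n = 3 each). The log2 fold change of -2.81 (SE 1.64, edgeR adjusted p = 0.72) was -7.79 without knockout library 3 (adjusted p = 0.859).

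Vpreb1, Igll1 and the related Vpreb3, taken without Vpreb2, did not keep a fixed ratio. Vpreb3 held 82.8% of their 344 counts in wild-type library 1, where Igll1 held 0.291%. In wild-type library 2 the 785 counts were shared more evenly, with 33.8% for Vpreb1, 38.6% for Vpreb3 and 27.6% for Igll1. Vpreb1 led in wild-type library 3, with 56.3% of 142 counts. In knockout, all 113 counts of library 3 came from Vpreb3, and 94.4% of the 18 counts of library 2 from Igll1. Library 1 had 2 counts. Their summed level was 43.8, 81.6 and 15.7 CPM in the wild-type libraries and 0.183, 1.70 and 9.78 CPM in the knockouts. The genotypes did not overlap for this sum, but only with Vpreb1 in it. In wild-type library 3, Igll1 (4.43 CPM) and Vpreb3 (2.44 CPM) together lay under the 9.78 CPM of Vpreb3 in knockout library 3. Such sums were not formed for other genes, so no background share is given.

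**Figure D2:**
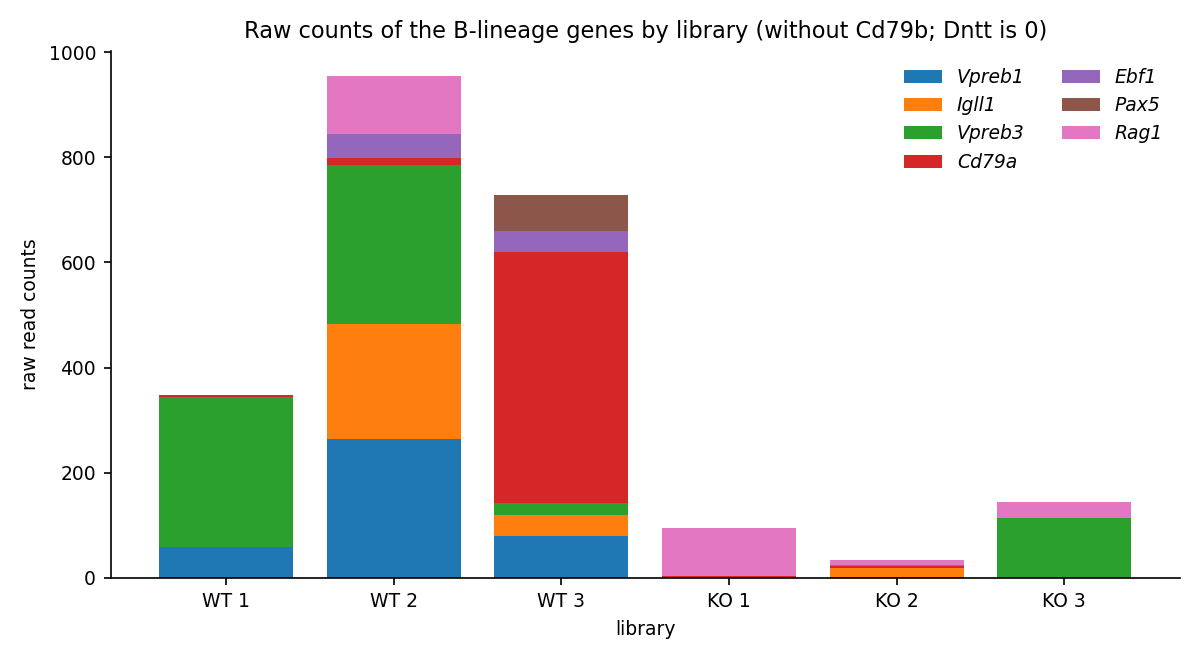
Raw read counts of 7 of the genes stacked by library, without Cd79b, which is far higher in knockout than the others, and Dntt, which is at 0. The 3 wild-type bars reach 348, 955 and 729 counts and the 3 knockout bars 94, 34 and 144, and the genes that fill them differ from library to library.

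Cd79a and Cd79b encode the paired signalling chains of the receptor, and they did not go together. Cd79a was counted 4, 13 and 478 times in the wild-type libraries and 1, 5 and 0 times in the knockouts. Wild-type library 3 held nearly all of it. In CPM every wild-type library still lay above every knockout library, but the nearest pair, wild-type library 1 at 0.509 CPM and knockout library 2 at 0.471 CPM, rests on 4 and 5 counts. The wild-type levels were 0.509, 1.35 and 53.0 CPM, with a mean of 18.3, against 0.187 ± 0.250 CPM for knockout (SD, n = 3). The difference of means, 18.1 CPM, was 0.743 CPM without wild-type library 3. Cd79a did not pass the filter on low counts. Fitted without a filter, 0 of the 8 genes with a count passed an adjusted p of 0.05, against 0.0614% of all genes. In that fit Cd79a had a log2 fold change of -6.50 (SE 1.83, edgeR adjusted p = 0.28).

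Cd79b was counted 308, 175 and 533 times in the wild-type libraries and 574, 336 and 318 times in the knockouts. The ranges, 18.2 to 59.1 CPM and 27.5 to 52.5 CPM, lay over each other. Cd79b was the only one of the 9 genes with reads in all 6 libraries. For its log2 fold change of -0.06 (SE 0.56) the edgeR adjusted p was 0.99, and with that error a 2-fold difference either way would lie within 2 standard errors. Its sign turned in 5 of the alternatives tried, with values up to 0.38 without wild-type library 3.

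Ebf1, the factor that specifies B-cell fate, was counted 0, 47 and 40 times in the wild-type libraries and 0, 2 and 0 times in the knockouts. Wild-type library 1 was as empty as the knockout libraries, so the genotypes overlapped. The levels were 3.11 ± 2.70 CPM and 0.0628 ± 0.109 CPM (SD, n = 3 each), and the fit without a filter gave a log2 fold change of -5.36 (SE 2.70, edgeR adjusted p = 0.58). Pax5, which commits cells to the B lineage, had 69 counts in wild-type library 3 and 0 in the other 5 libraries, which allows up to 3 counts in each. No fold is given for it, since the knockout libraries are all at 0, and its difference rests on that 1 library. In the fit without a filter 3 of the 8 genes, Vpreb1, Cd79a and Pax5, had lower values in knockout at an unadjusted p under 0.05, as had 5.13% of all genes.

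Rag1, which encodes the cutting subunit of the recombinase, went another way. It was counted 0, 110 and 0 times in the wild-type libraries and 91, 9 and 31 times in the knockouts. All knockout libraries had reads, and the highest level, 11.4 CPM, was that of wild-type library 2. The means of 3.81 ± 6.61 and 3.95 ± 3.90 CPM (SD, n = 3 each) differed by less than their spread. With a log2 fold change of 0.05 (SE 1.95), Rag1 had an edgeR adjusted p of 1.0. Without wild-type library 2 both remaining wild-type libraries are at 0, so no fold is given, and without knockout library 1 the value was -1.09. Its partner Rag2 was counted 0, 1 and 85 times in the wild-type libraries and 63, 3 and 2 times in the knockouts. Knockout library 1 was high for both Rag genes, while wild-type library 2 held Rag1 and wild-type library 3 Rag2. Dntt had 0 counts in all libraries for both of its listed transcripts.

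**Figure D3:**
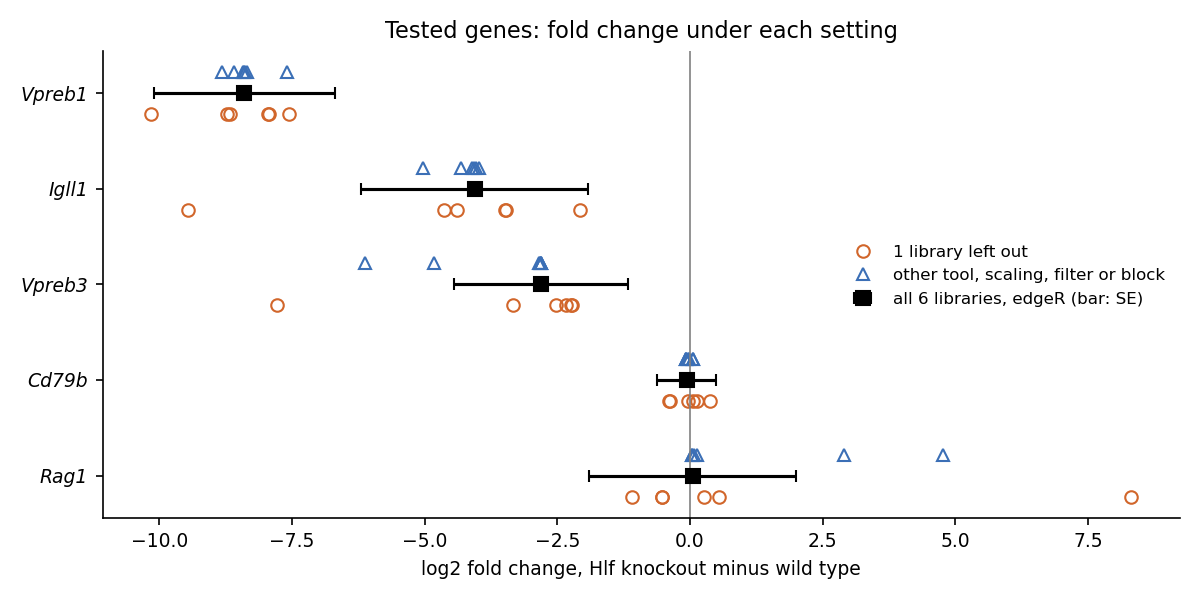
Log2 fold change, Hlf knockout minus wild type, of the 5 tested genes with all 6 libraries (square, bar is the SE), with 1 library left out (circles) and with another tool, scaling, filter or replicate block (triangles). The extreme values of Vpreb1 (-10.15), Igll1 (-9.46) and Rag1 (8.31) come from fits in which all remaining libraries of 1 genotype are at 0, and they are no measured folds. Vpreb1, Igll1 and Vpreb3 stay below 0, and Cd79b and Rag1 fall on both sides of 0.

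Levels of different genes can be set side by side only per transcript length. Per kilobase of the listed transcript, the wild-type order was Vpreb3 (37.4 CPM per kilobase), Cd79b (32.5), Vpreb1 (19.1), Cd79a (12.5), Igll1 (10.4), Rag1 (0.577), Ebf1 (0.519) and Pax5 (0.318). The SDs over libraries ran from 13.7 to 29.3 CPM per kilobase for the first 5 of these and from 0.451 to 1.00 for the last 3, so no neighbours in the order differed beyond their spread. In knockout Cd79b came first with 31.2 ± 11.2 CPM per kilobase (SD, n = 3). Vpreb3 followed at 5.32, and the other 6 genes with a length-scaled value lay at or under 0.613.

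Detection of these genes was patchy. Of the 8 that reached 40 counts in some library, 7 were at 0 in another, the exception being Cd79b. Among all genes that reached 40 counts 15.5% were at 0 in some library. Among the 5403 whose highest library lay between 40 counts and 574, the highest count of any of the 9, it was 30.3%. The minimum of 40 was chosen after the values were seen, and with 20 and 80 it was 7 of 8 and 5 of 6. Pax5 was found in 1 library only, as were 131 of all 10745 genes that reached 40 counts.

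The profile of each library can be read from the genes with at least 10 counts. Wild-type libraries 2 and 3 each had 7 of the 9 genes at that level, wild-type library 1 and knockout library 3 had 3, and knockout libraries 1 and 2 had 2. Wild-type library 2 combined Vpreb1, Igll1, Vpreb3, Ebf1 and Rag1. Wild-type library 3 combined Cd79a, Cd79b, Pax5 and Ebf1 with less Vpreb1 and Igll1 than in library 2. In that library Ms4a1 (CD20), a surface protein of later B cells, had 146 counts, where the other libraries had at most 1.

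The levels of marker lists for B cells and other cells are given here beside these values. Of the 8 B-cell markers 4 are among the 9 genes (Cd79a, Cd79b, Pax5 and Ebf1). Cd22 and Cd72 (several transcripts each) were at 0 throughout. The 8 summed to 31.0 to 147 CPM for wild type against 28.1 to 53.3 CPM for knockout. Without Cd79b the sums were 0.636, 12.8 and 87.5 CPM in the wild-type libraries and 0.823, 0.659 and 0.606 CPM in the knockouts. Wild-type library 1 then lay within the knockout range, and with or without Cd79b the highest was wild-type library 3. The 14 granulocyte and monocyte markers, 13 with a count, were also highest there, at 3440 CPM, against 634 and 638 CPM in wild-type libraries 1 and 2 and 328 to 491 CPM among knockouts. These sums were separated too. Without Lyz2 they overlapped, at 262, 137 and 2772 CPM in the wild-type libraries and 87.6, 219 and 77.9 CPM in the knockouts. Among these 14 markers Mpo, the neutrophil granule peroxidase, was counted 287, 438 and 12383 times in the wild-type libraries and 622, 1448 and 666 times in the knockouts. Prtn3 was lower in every knockout library, with 960, 680 and 3312 counts in the wild-type libraries and 25, 120 and 35 in the knockouts. The 11 plasma cell markers, 10 with a count and Xbp1 at 0, summed to 611 to 5540 CPM for wild type against 172 to 299 CPM for knockout. Jchain alone made this separation. The other plasma cell markers summed to 35.1, 48.6 and 466 CPM in the wild-type libraries and 63.1, 59.4 and 79.5 CPM in the knockouts, which overlap. Markers of T and NK cells, 9 of 12 with a count, summed to 129 to 249 CPM for wild type against 287 to 503 CPM for knockout. Here Nkg7, a granule protein of cytotoxic cells, made the separation, and without it the sums were 141, 92.5 and 31.4 CPM in the wild-type libraries and 32.8, 52.6 and 40.4 CPM in the knockouts. Those of plasmacytoid dendritic cells, 4 of 8 with a count, overlapped at 38.0 to 85.0 and 41.0 to 76.7 CPM, with the defining gene Siglech at 1 count in all. The part of such cells in the B-lineage values was not tested.

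**Figure D4:**
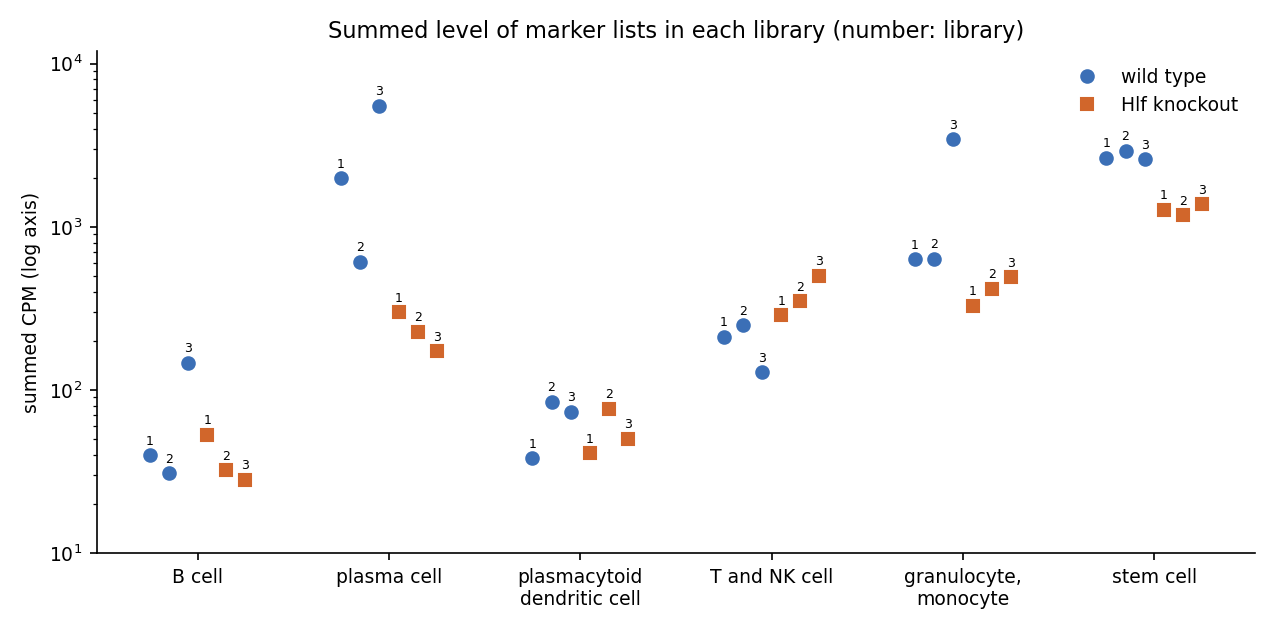
Summed level in CPM, on a log axis, of 6 marker lists in each of the 6 libraries (circles wild type, squares Hlf knockout, numbered by library). Wild-type library 3 is highest for B cell, plasma cell and granulocyte markers. The plasma cell, T and NK cell, stem cell and granulocyte sums are separated, and each overlaps without 1 gene (Jchain, Nkg7, Hlf and Lyz2). Single genes among the rest are still separated, such as Procr, Sdc1, Prtn3 and Cd4 (lower in knockout) and Cd3g (higher, with 0, 0 and 6 counts in wild type). Of all tested genes 6.85% were separated as lower and 7.52% as higher.

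Other genes of B-cell development gave mixed values. Of the 55 tested genes in the 5 lists described next, 0 passed edgeR's adjusted p of 0.05, against 0.0098% of all 10204 tested genes. DESeq2 called 2 of the 55, Pou2af1 (adjusted p = 8.64e-07) and Jchain (0.00118), both lower in knockout. It called 1.26% of the 9517 genes it gave an adjusted p. For the edgeR counts at an unadjusted p under 0.05 given below, 4.65% of all tested genes had lower and 2.63% higher values. Among 20 genes of the B-cell surface and of pre-B receptor signalling 9 were tested, with a median log2 fold change of -0.67, against -0.05 over all tested genes. At an unadjusted p under 0.05, 2 had lower and 0 higher values in knockout, a count of 0 without knockout library 2 and up to 3 with another library left out. These were Cd24a, a surface glycoprotein of B-cell precursors among other cells (-0.67, SE 0.24, or -0.39 once wild-type library 1 was left out), and the complement receptor Cr2 (-2.56, SE 1.04, or -0.73 once wild-type library 1 was left out). Blnk, the adaptor downstream of the receptor, stood at -3.13 (SE 1.64, or -1.31 once wild-type library 3 was left out), and the phospholipase Plcg2 at -0.70 (SE 0.37, or -0.27 once wild-type library 1 was left out). Lyn, a Src-family kinase with 2 listed transcripts, had 15 counts in all and was not tested.

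Transcription factors of the B lineage and their regulators had 15 of 22 genes tested and a median log2 fold change of -0.35. At an unadjusted p under 0.05, 3 had lower values in knockout and 0 higher, and the count was 1 without wild-type library 3. Pou2af1, a coactivator of Oct factors in B cells, was counted 188, 819 and 3512 times in the wild-type libraries and 122, 78 and 104 times in the knockouts, with a log2 fold change of -4.18 (SE 0.83, edgeR adjusted p = 0.37). It was -2.57 without wild-type library 3 and passed without wild-type library 1 (adjusted p = 0.00925). Irf4, a factor of pre-B and plasma cells, stood at -4.86 (SE 1.76), with 1482 of its wild-type counts in library 3, and at -1.26 without that library. Zfp521, known to antagonise Ebf1, stood at -0.94 (SE 0.36) and Irf8 at -2.34 (SE 1.40). The factors that act above Ebf1 showed smaller values, with Spi1 (PU.1) at -0.35 (SE 0.40), Foxo1 at -0.34 (SE 0.46, or 0.08 once wild-type library 3 was left out) and Ikzf1 (Ikaros) at 0.80 (SE 1.16). Tcf3, which encodes the E2A proteins, was at 0 in every library and has 8 listed transcripts.

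Genes of V(D)J recombination and end joining had 13 of 14 tested, 7 positive and 6 negative, and a median of 0.05. Hmgb2, a DNA-bending cofactor of the RAG proteins, was the 1 gene at an unadjusted p under 0.05, with a higher value in knockout (0.60, SE 0.25), and there was none in either direction without knockout library 1, and 1 higher and 2 lower without wild-type library 3. The Ku80 gene Xrcc5 stood at 1.04 (SE 0.53, from 0.59 without knockout library 2 to 1.78 without wild-type library 2), the ligase gene Lig4 at -1.90 (SE 0.87, or -0.48 once wild-type library 1 was left out) and the polymerase gene Poll at -1.25 (SE 0.66). For lymphoid priming 9 of 12 genes were tested, with a median of -0.60, and 0 had an unadjusted p under 0.05 by edgeR (0 to 1 with 1 library left out). The interleukin-7 receptor gene Il7r stood at 0.66 (SE 0.83, from 0.16 without wild-type library 1 to 1.58 without wild-type library 3) and its shared subunit Il2rg at 0.37 (SE 0.28). Flt3, whose protein the sort excluded, stood at -0.69 (SE 0.75, from -1.05 without knockout library 2 to -0.17 without wild-type library 2), Notch1 at -0.65 (SE 0.43) and Ly6d, a mark of B-biased lymphoid progenitors, at -2.36 (SE 1.14, or 0.26 once wild-type library 3 was left out).

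The plasma cell list had 9 of 11 genes tested and a median of -2.35, which was 0.98 without wild-type library 3. At an unadjusted p under 0.05, 2 genes had lower values in knockout and 0 higher. The lower count was 4 without wild-type library 1. Without wild-type library 3 there were 1 lower and 1 higher. Jchain, which links polymeric antibodies, was counted 15320, 5405 and 45789 times in the wild-type libraries and 2574, 1793 and 1073 times in the knockouts, with a log2 fold change of -3.93 (SE 0.82, edgeR adjusted p = 0.43). It was -2.92 without wild-type library 3 (adjusted p = 0.245) and -4.39 without wild-type library 2, where it passed (adjusted p = 0.0184). Its highest library was wild-type library 3, as for Cd79a, whereas Vpreb1 was highest in wild-type library 2.

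**Figure D5:**
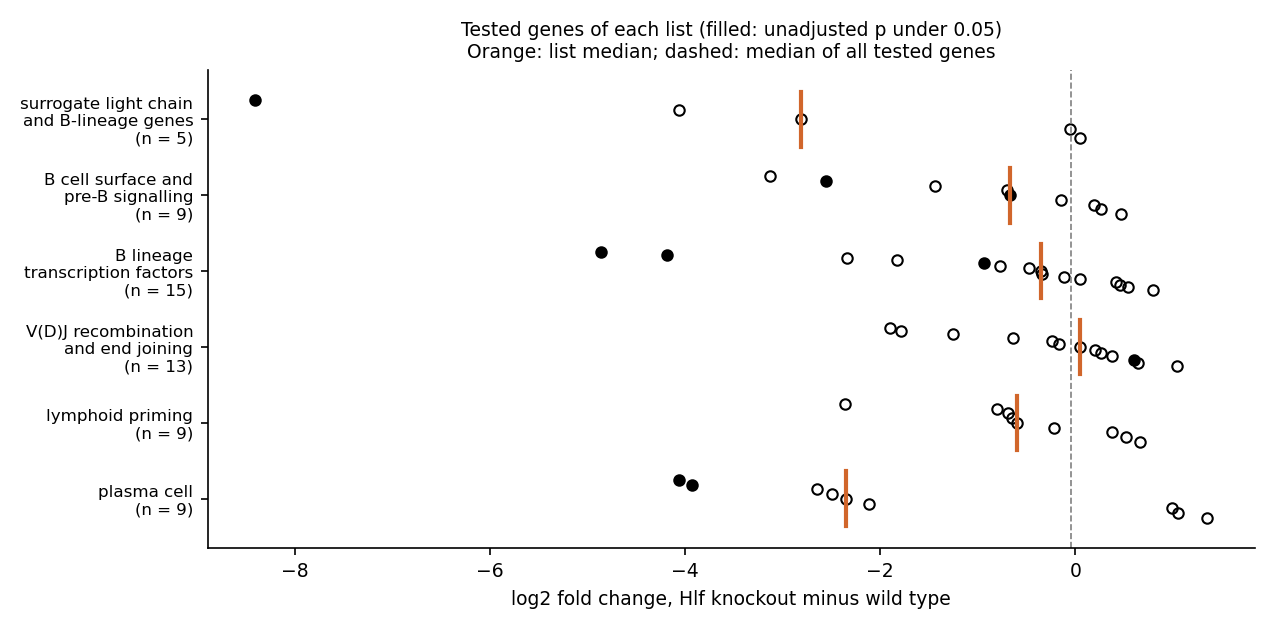
Log2 fold change, Hlf knockout minus wild type, of the tested genes in 6 lists (points, filled at an unadjusted p under 0.05), with the list median (orange) and the median of all tested genes (dashed, at -0.05). The surrogate light chain and B-lineage genes spread from -8.40 to 0.05, and the recombination list is centred at 0.05.

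Genes beside Vpreb1, Igll1 and Vpreb3 were examined because Igll1 and Vpreb1 are direct neighbours on chromosome 16 in the RefSeq gene order. The next gene beyond Vpreb1, the topoisomerase gene Top3b, was counted 286, 484 and 453 times in the wild-type libraries and 1368, 788 and 369 times in the knockouts (log2 fold change 0.76, SE 0.50, and 0.23 without knockout library 1). Beyond it, the phosphatase gene Ppm1f stood at -1.08 (SE 0.54). Chchd10, 2 genes before Vpreb3 on chromosome 10, stood at -0.59 (SE 0.39). None of these 3 passed an adjusted p of 0.05 by edgeR (smallest 0.69), and each had reads in all 6 libraries.

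Genes whose log2 CPM followed Vpreb1 most closely over the 6 libraries were Abcd4 (Pearson's r = 0.991), Star (0.987), Hlf (0.986), Nipsnap3b (0.986) and Ube2q1 (0.983), out of 8463 genes searched (mean log2 CPM of 2 or more). Those nearest to Igll1 were Snx9 (0.980), Dnase1 (0.980), Gtpbp3 (0.978), Sltm (0.976) and Stard3 (0.975). The lists shared no gene. The points are 6 libraries in 2 genotypes, and each gene is read at the same depths, so these values are a description and carry no p. None of these 10 genes is among the 9 described here.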

How the data were processed

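Libraries were built from RNA of sorted stem cells with TruSeq kits, per the labels' protocols. The authors deposited raw read counts per RefSeq transcript for each of the 6 libraries, and TopHat and mm9 are named in the submitters' processing notes. For the counting tool, its treatment of strand and shared reads, and the annotation release: not given in the sources used here. Accessions were matched to symbols with the RefSeq table of GRCm38.p6 (30363 of 30858) or GENCODE (179), and 316 kept their accession. Counts were then added up per gene.

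All genes were fitted together with edgeR 4.0.16 (TMM factors, filterByExpr with minimum count 10 and total 15, robust quasi-likelihood F test, genotype only), and p-values were adjusted by Benjamini-Hochberg over 10204 genes. Genes under the filter are given as counts and CPM. CPM uses TMM-scaled totals, and log2 CPM a prior count of 2. Intervals and limits at 0 cover counting error. Alternatives were DESeq2 1.42.0, limma-voom 3.58.1, other factors and filters, a replicate block and each library left out. The fit was tested on simulated data. Marker sums without their highest gene were added after seeing the data. Named genes are the 9, a fixed set of partners, the 4 of smallest p in a list, neighbours and the 5 most alike, and some of these are not reported here. Members, lists and this rule were chosen with earlier results of these data known.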

Additional observations from a re-analysis of the deposited data

How the results depend on the processing

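With edgeR 1 gene was called overall and 0 of the 9 described. The overall count was 120 with DESeq2, 9 without a filter on low counts, 2 with a replicate block and 1 to 3 with 1 library left out. Of the 9 genes DESeq2 called 1 (Vpreb1), and the other alternatives called 0. Whether the shared replicate numbers pair the libraries is not settled here. The deviations of same-numbered libraries from their genotype means correlated at -0.010, -0.022 and 0.020. With 3 libraries per genotype such values cannot exclude a pairing. The block gave 2 calls in place of 1, Hlf and Prg2. With it the log2 fold change was 4.77 (SE 3.75) for Rag1, -6.12 (SE 2.91) for Vpreb3 and -1.84 (SE 2.01) for Irf4. Vpreb1 moved little, to -8.59 (SE 1.93). Over 63 alternative values of the 5 tested genes, 55 kept their direction. Cd79b turned to 0.06 with limma-voom, 0.05 with the block, 0.38 without wild-type library 3, 0.06 without knockout library 2 and 0.13 without knockout library 3. Rag1 turned to -0.52 without wild-type library 1, -0.53 without wild-type library 3 and -1.09 without knockout library 1. Of 337 values of 26 other genes 2 turned, Foxo1 (0.08) and Ly6d (0.26), both without wild-type library 3. With 1 library left out the values ran from -0.39 to 0.38 for Cd79b, -1.09 to 8.31 for Rag1 (8.31, without wild-type library 2, is fitted against libraries at 0 and is no measured fold), -0.60 to 0.08 for Foxo1 and -2.89 to 0.26 for Ly6d. The cause was not tested. With minimum count 30, Igll1 and Rag1 were not tested.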
